A study of Mus musculus with 2 samples.

Results

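The genes described here are 10 members of the TGF-β and BMP signalling family among the 31053 genes of the deposited count tables. They were taken by name and are the ligands Bmp2, Bmp4, Gdf10, Tgfb1 and Tgfb2, the secreted BMP regulator Bmper, and the receptors Tgfbr1, Tgfbr2, Acvr1c and Bmpr1a. All 10 had a row in both tables. Their RNA was counted in nuclei of iWAT, the inguinal subcutaneous fat depot of the mouse, by single-nucleus RNA-Seq (snRNA-Seq) with 10x Genomics 3' v3.1 chemistry. Molecules are counted by unique molecular identifiers (UMIs), short tags that keep amplified copies from being counted again.

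The genotypes Lexis WT and Lexis KO had 1 library each. Lexis is a long noncoding RNA. Per the study's methods the KO mice were floxed for Lexis and carried adiponectin-Cre (Lexis-AdKO), and the WT mice were their Lexis-AdWT controls, floxed and without Cre. All were male, on a C57BL/6 background and fed a Western diet, and the labels give no age. Adiponectin-Cre acts in adipocytes, so the other nuclei of the KO tissue are expected to keep the gene. Tissue of 3 mice was pooled for each library, with the lymph node left out per the labels. In 2 of 2 libraries the file name names the other genotype than the label does. Groups follow the labels, which Lexis could not check because it was not analysed here, and each library is therefore called by its label throughout. A single library per genotype allows no test, and none is reported. Every interval is an exact 95% interval for counting error, so variation among mice or preparations is not in it.

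TGF-β family ligands are secreted dimers that bind pairs of type I and type II receptor kinases. The type I receptor then phosphorylates SMAD proteins, which move to the nucleus and change transcription. TGF-β and activin type ligands act mainly through SMAD2 and SMAD3 and restrain adipocyte differentiation, whereas BMP ligands act mainly through SMAD1, SMAD5 and SMAD9 and can commit precursor cells to the adipocyte lineage. Extracellular proteins such as Bmper hold ligands back from the receptors or present them.

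The promoters of Bmper, Gdf10 and Bmp4 are shown because the RNA of these 3 genes was highest in the same class of stromal nuclei in both libraries. Tgfb2 shares this pattern, but its window lies inside the annotated span of the gene and is only described. Each run holds the 250 bases before the RefSeq transcription start, 5′ to 3′ on the strand of the gene (GRCm38.p6, the same build as mm10), with any CAGAC in capitals, a short sequence known to be bound by SMAD3 and SMAD4. The genes themselves lie directly downstream, Bmper (ENSMUSG00000031963, chr9:23223076-23485215), Gdf10 (ENSMUSG00000021943, chr14:33923587-33936514) and Bmp4 (ENSMUSG00000021835, chr14:46383525-46390669).

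Bmper, chr9:23222826-23223075, plus strand: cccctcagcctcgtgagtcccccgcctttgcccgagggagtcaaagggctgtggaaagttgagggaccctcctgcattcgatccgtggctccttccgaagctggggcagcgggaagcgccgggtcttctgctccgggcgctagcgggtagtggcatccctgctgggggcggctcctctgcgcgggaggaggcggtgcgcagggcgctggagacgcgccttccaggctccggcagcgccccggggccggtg

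Gdf10, chr14:33923337-33923586, plus strand: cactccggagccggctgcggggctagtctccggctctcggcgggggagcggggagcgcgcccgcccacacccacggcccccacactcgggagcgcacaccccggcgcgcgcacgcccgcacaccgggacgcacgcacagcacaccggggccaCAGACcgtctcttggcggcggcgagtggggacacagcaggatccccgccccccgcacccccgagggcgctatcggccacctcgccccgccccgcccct

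Bmp4, chr14:46390670-46390919, minus strand: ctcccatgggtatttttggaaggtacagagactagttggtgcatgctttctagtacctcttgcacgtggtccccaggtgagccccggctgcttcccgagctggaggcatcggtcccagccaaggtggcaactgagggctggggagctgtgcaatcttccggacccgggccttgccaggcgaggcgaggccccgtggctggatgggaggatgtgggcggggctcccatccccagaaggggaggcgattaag

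Of these 3 windows only that of Gdf10 held CAGAC, at 1 place. Among the windows of the other genes, the Tgfb2 window held CAGAC at 2 places and that of Tgfbr2 at 1, and a second Tgfbr1 window, at an inner start, at 1. Searched on both strands and in windows of the same kind, CAGAC was present in 42.2% of 32851 promoters. The motif AGGTCA was absent from the windows of the 9 genes with an entry, and was present in 14.0% of all promoters. GGCGCC stood once each in the windows of Bmpr1a and Tgfbr1, and in 9.59% of all promoters. No entry was given for Bmp2. A match is a description of letters and not of binding.

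After filters of at least 500 genes and at most 5% mitochondrial UMIs, 3503 nuclei of the library labelled WT (median 1195 UMIs and 758 genes) and 2833 of the library labelled KO (median 3865 UMIs and 1935 genes) were kept, and 10 kept barcodes occurred in both. Nuclei were clustered without the 10 genes and the other genes of their pathway, and clusters were named from marker lists. All class names below stand for nuclei that are adipocyte-like, ASPC-like (adipogenic stem and precursor cells, fibroblasts included) and so on by these markers. The library labelled WT held 419 adipocyte, 297 ASPC, 323 myeloid, 2108 lymphocyte, 96 endothelial, 10 mural and 149 lymphoid stroma nuclei. The library labelled KO held 880, 784, 868, 74, 122 and 43 of the first 6 of these classes, and 52 myocyte nuclei. Lymphocytes thus made up 60.2% of one library and 2.61% of the other, although lymph nodes had been left out. The adipocyte class met its list, with 12 of 12 markers (labelled WT) and 11 of 12 (labelled KO) at least 2 times higher than in the remaining nuclei. The ASPC class did so for 10 and 12 of 13 markers, and the lymphocyte class of the library labelled KO (74 nuclei) for 11 of 16, with 3 at 0.

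Of the 10 genes, 7 had their highest level in the same class in both libraries. Levels are the summed UMIs of a class scaled to the UMI total of that class (CPM), and classes of at least 50 nuclei were ranked, 6 in each library. Bmp4, Bmper, Gdf10 and Tgfb2 led in ASPCs, Tgfb1 in lymphocytes, and the receptors Acvr1c and Bmpr1a in adipocytes. Bmp2 led in endothelial nuclei of the library labelled WT and in ASPCs of the library labelled KO, Tgfbr1 in myeloid and in myocyte nuclei, and Tgfbr2 in lymphocytes and in ASPCs. The count of 7 held under 5 other settings, and was 6 when classes of 20 to 49 nuclei were admitted, since mural nuclei then had more Bmpr1a than adipocytes in the library labelled KO.

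**Figure D1:**
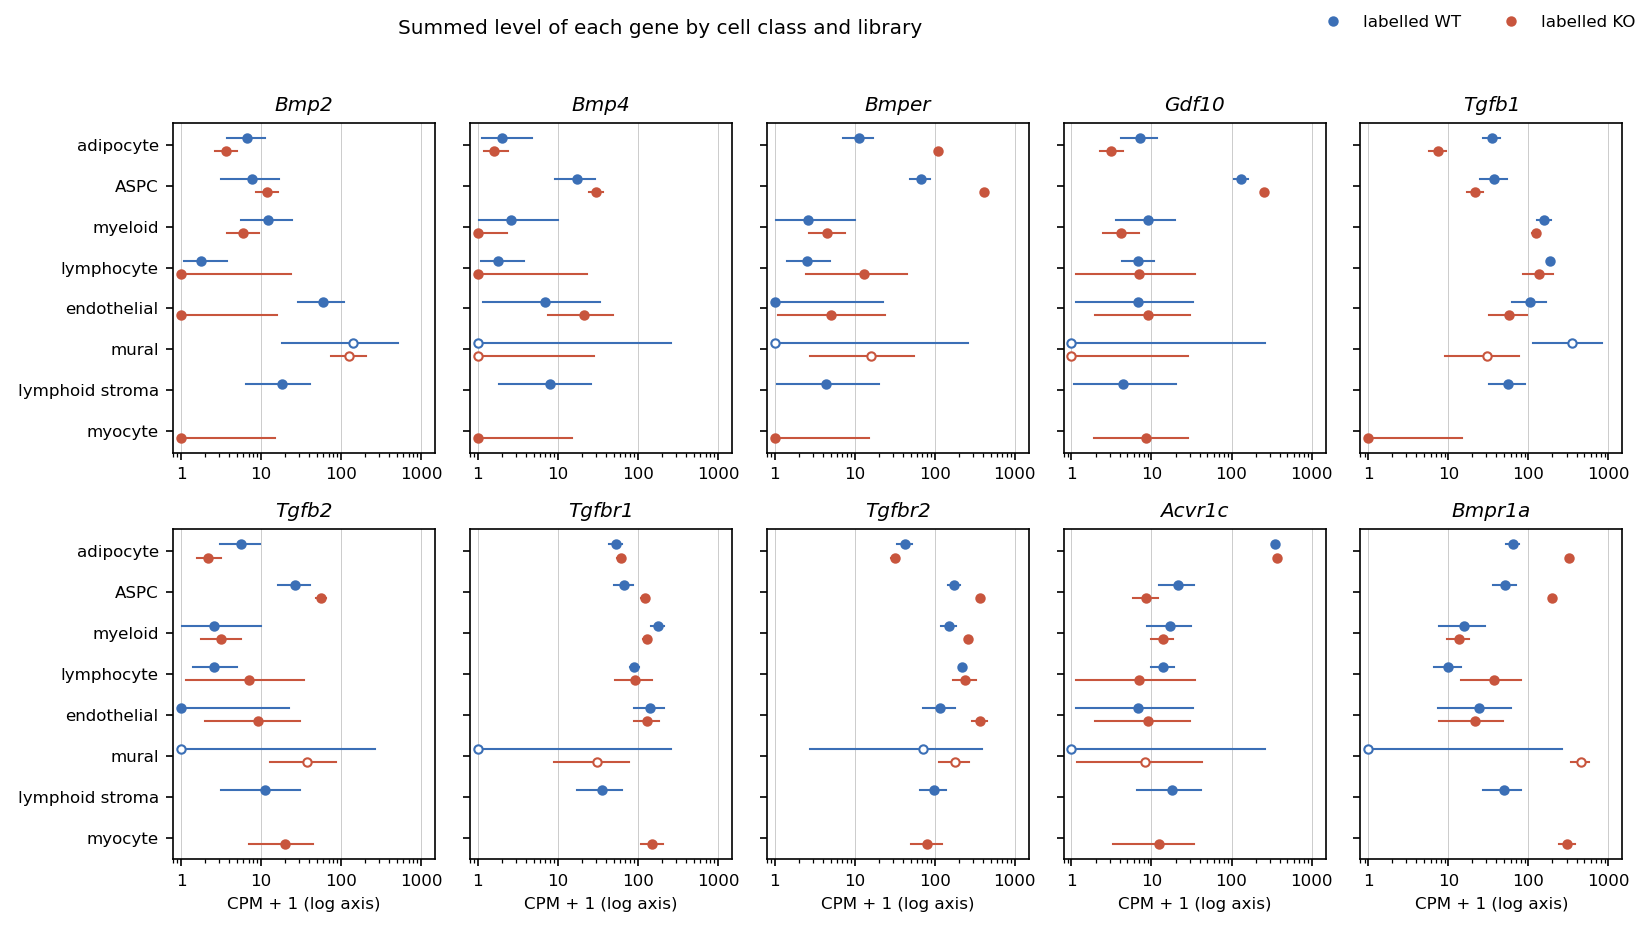
Level of each gene (CPM plus 1, log axis) in each cell class, labelled WT in blue and labelled KO in red. Lines are exact Poisson 95% intervals and open circles mark classes of fewer than 50 nuclei. Acvr1c stands at 349 and 366 CPM in adipocytes and at no more than 20.2 CPM in any other class shown, and Gdf10 at 130 and 250 CPM in ASPCs.

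Among the ligands, Gdf10 (also called BMP3B) was a gene of the ASPCs. In the order WT and KO by label, it had 97 counts there, a level of 130 CPM (106 to 159), and 827 counts, a level of 250 CPM (233 to 268). Pairs of values below keep this order. The next class stood at 8.10 CPM (myeloid, 5 counts) and 8.16 CPM (endothelial, 2 counts), so that ASPCs were above it by 16.1 times (6.67 to 50.7) and 30.7 times (8.46 to 254). Adipocytes had 12 and 18 counts of Gdf10. ASPCs held 73% and 96% of all its UMIs. Gdf10 was therefore separated from every other ranked class in both libraries.

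Bmp4, a ligand that commits precursors to the adipocyte lineage, was sparse. ASPCs had 12 counts (16.1 CPM, 8.33 to 28.2) and 96 counts (29.0 CPM, 23.5 to 35.5), and adipocytes 2 and 5 counts. Its endothelial level under the label KO was 20.4 CPM from 5 counts, and the ASPC level was 1.42 times that (0.589 to 4.48), so these neighbours did not differ beyond counting error. The same held for ASPCs and lymphoid stroma in the library labelled WT, where the ratio was 2.35 (0.522 to 21.6).

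Bmp2 (ENSMUSG00000027358, chr2:133552159-133562896), a BMP ligand known for osteogenic and adipogenic commitment, was sparse and had its highest levels in vascular and stromal nuclei. Adipocytes had 11 and 22 counts, 25.6% and 24.7% of its UMIs, at lower levels of 5.63 and 2.61 CPM. In the library labelled WT Bmp2 had 10 counts in endothelial nuclei (58.3 CPM, 28.0 to 107), above the next class by 3.39 times (1.06 to 12.7). Under the label KO it had 0 counts in 122 endothelial nuclei, where 3 counts would be 12.2 CPM and the exact upper limit was 15.1 CPM. It had 36 counts in ASPCs (10.9 CPM, 7.63 to 15.1) and 17 in only 43 mural nuclei (126 CPM, 73.2 to 201). That mural level was 11.5 times (6.08 to 21.1) the level of ASPCs. Mural nuclei of the library labelled WT had 2 counts in 10 nuclei. These 2 counts are under the floor of 3 counts, and their level (17.1 to 511 CPM) could not be set apart from the endothelial level of that library.

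Of the TGF-β ligands, Tgfb1 (ENSMUSG00000002603, chr7:25687002-25705077), made by many immune cells, was highest in leukocytes among the ranked classes. Lymphocytes had 477 counts (185 CPM, 169 to 203) and 22 counts (133 CPM, 83.7 to 202). Myeloid nuclei had 96 counts (155 CPM, 126 to 190) and 349 counts (124 CPM, 112 to 138). Lymphocytes and myeloid nuclei did not differ beyond counting error in either library, with ratios of 1.19 (0.955 to 1.50) and 1.07 (0.665 to 1.65). Lymphocytes held 65.4% of the Tgfb1 UMIs in the library labelled WT, and myeloid nuclei 68.2% in the library labelled KO.

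Tgfb2 (ENSMUSG00000039239, chr1:186622787-186709697), the second TGF-β ligand measured, had another source. ASPCs had 19 counts (25.5 CPM, 15.4 to 39.9) and 183 counts (55.4 CPM, 47.6 to 64.0), whereas myeloid nuclei had 1 and 6 counts. ASPCs stood above the next ranked class, myocytes, by 2.93 times (1.23 to 9.13) in the library labelled KO. The 43 mural nuclei there, too few to be ranked, had 5 counts (37.0 CPM, 12.0 to 86.2), an interval that holds the ASPC level. Lymphoid stroma was next in the library labelled WT, and a ratio of 2.48 (0.729 to 13.1) did not separate it from ASPCs.

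Bmper, the secreted regulator that binds BMPs outside the cell, was highest in ASPCs and second in adipocytes in both libraries. ASPCs had 49 counts (65.8 CPM, 48.7 to 87.1) and 1342 counts (406 CPM, 385 to 428). Adipocytes had 20 counts (10.2 CPM, 6.25 to 15.8) and 932 counts (111 CPM, 104 to 118). ASPCs were above adipocytes by 6.43 times (3.75 to 11.4) and 3.67 times (3.38 to 4.00). The adipocyte level was 15.5% (8.75 to 26.6) and 27.2% (25 to 29.6) of the ASPC level, while the 13 ASPC markers summed reached 10.2% and 3.39%. Single markers varied, with a median of 5.04% and 1.43% and a highest share of 149% and 54.7%, so Bmper lay within their range. For Gdf10 the share of the ASPC level was 4.71% and 0.853%. RNA of other nuclei in the adipocyte droplets would raise such shares for all ASPC genes, and its part in these values was not tested. ASPCs held 65% and 59% of the Bmper UMIs, adipocytes 27% and 41%.

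**Figure D2:**
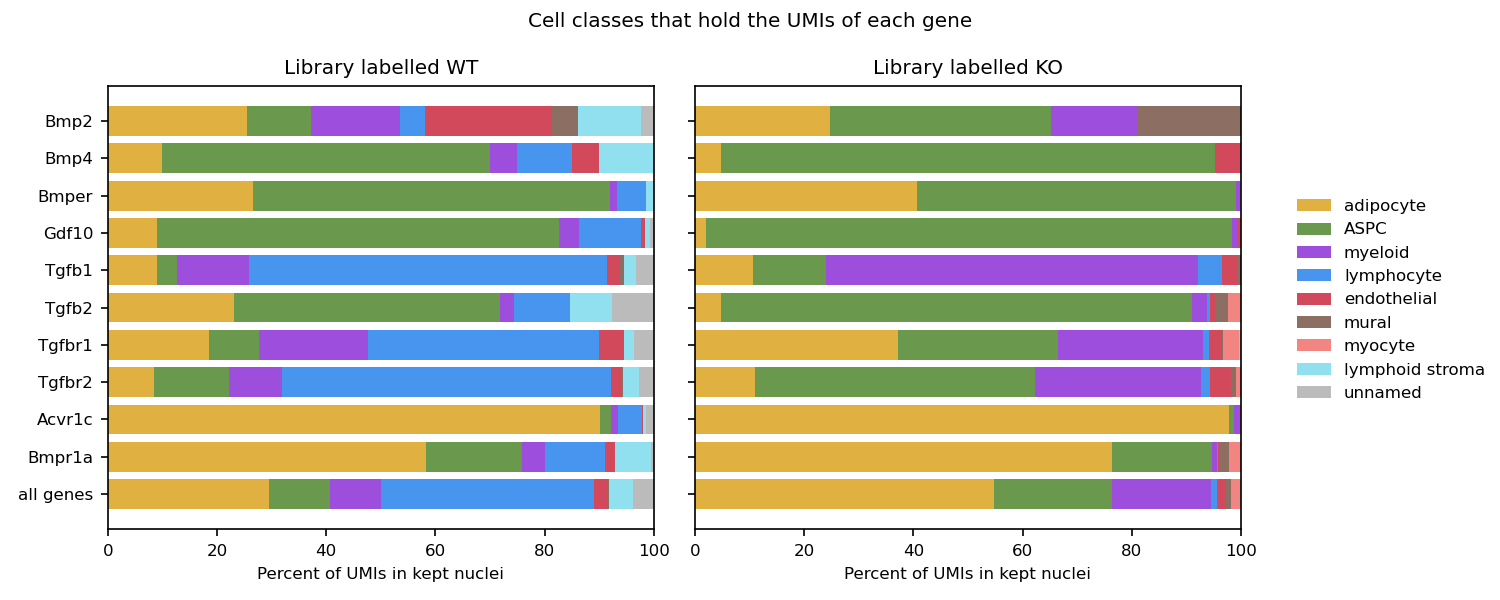
Percent of the UMIs of each gene, and of all genes together (bottom bar), that lie in each cell class, for the library labelled WT (left) and labelled KO (right), each class a colour and each bar summing over kept nuclei. Adipocytes hold 90% and 98% of Acvr1c, and ASPCs 73% and 96% of Gdf10.

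Among the receptors, 1 was an adipocyte gene. Acvr1c (ENSMUSG00000026834, chr2:58267453-58357896), also called ALK7, is a type I receptor for activin-type and GDF ligands and is known as an adipocyte receptor that restrains lipolysis. Adipocytes had 681 counts (349 CPM, 323 to 376) and 3089 counts (366 CPM, 354 to 379), close to each other in level. The next class had 20.2 CPM (ASPCs) and 12.8 CPM (myeloid nuclei), lower than adipocytes by 17.3 times (10.4 to 31.1) and 28.6 times (20.6 to 40.9). Adipocytes held 90% and 98% of its UMIs. In lymphocytes, a class not known for this receptor, Acvr1c stood at 12.8 CPM (33 counts) in the library labelled WT and at 6.07 CPM (1 count) in the library labelled KO.

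Bmpr1a (ENSMUSG00000021796, chr14:34411061-34503336), a type I BMP receptor (ALK3), led in adipocytes but was not limited to them. Adipocytes had 123 counts (63.0 CPM, 52.3 to 75.1) and 2711 counts (321 CPM, 310 to 334). ASPCs had 37 counts (49.7 CPM, 35.0 to 68.5) and 650 counts (197 CPM, 182 to 212). Adipocytes and ASPCs of the library labelled WT did not differ beyond counting error (ratio 1.27, 0.870 to 1.88). Under the label KO the neighbour was the myocyte class at 302 CPM, also not separated (1.06, 0.851 to 1.35), and mural nuclei had 451 CPM (345 to 579), 2.29 times (1.73 to 2.98) the ASPC level. Myeloid nuclei had 14.6 and 12.5 CPM, and lymphocytes 8.93 CPM and 36.4 CPM (13.4 to 79.2), the latter from 6 counts.

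The TGF-β receptors were broadly expressed, with adipocytes at the low end. Tgfbr2 (ENSMUSG00000032440, chr9:116087695-116175363), the type II receptor that binds TGF-β first, had 81 counts in adipocytes (41.5 CPM, 32.9 to 51.5) and 259 (30.7 CPM, 27.1 to 34.7), the lowest of the 6 ranked classes in each library. Under the label WT lymphocytes led at 221 CPM (203 to 240), above ASPCs at 175 CPM by 1.27 times (1.05 to 1.54). Under the label KO ASPCs (368 CPM, 348 to 389) and endothelial nuclei (367 CPM, 295 to 451) led together, with a ratio of 1.00 (0.809 to 1.26), above myeloid nuclei at 257 CPM.

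Tgfbr1 (ENSMUSG00000007613, chr4:47353222-47414926), its type I partner (ALK5), had no leading class that was separated from the next. With the label WT, myeloid nuclei had 109 counts (177 CPM, 145 to 213), endothelial nuclei 24 (140 CPM, 89.7 to 208) and adipocytes 101 (51.7 CPM, 42.1 to 62.8). Under the label KO the levels ran from 59.7 CPM in adipocytes (503 counts) to 151 CPM in myocytes (40 counts), with myeloid nuclei at 127 CPM and ASPCs at 121 CPM. No pair of neighbours in either order was separated. Classes further apart did differ, with adipocytes at 29.3% (22.1 to 38.7) and 46.8% (40.8 to 53.7) of the myeloid level.

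To set each class of at least 50 nuclei against the remaining nuclei of its own library, genes at or above 2 times the level of those nuclei were counted. Genes of at least 50 counts in the library could be counted, 7 of the 10 in the library labelled WT and all 10 in the library labelled KO. In ASPCs of the library labelled KO 6 of 10 passed, against 13.4% of all genes. They were Gdf10 (94.4 times), Bmp4 (35.1), Tgfb2 (23.1), Bmper (5.15), Tgfbr2 (3.85) and Bmp2 (2.48). Gdf10, Bmp4 and Tgfb2 had fewer than 50 counts outside ASPCs, so they met the minimum only through the class in which they were high, and the count of 6 is a description from which nothing is read. Under the label WT 2 of 7 passed in ASPCs, against 8.93%, namely Gdf10 (21.9 times, 14.7 to 33.2) and Bmper (14.9, 9.07 to 24.9), both likewise with fewer than 50 counts outside ASPCs. In adipocytes Acvr1c and Bmpr1a passed in both libraries, 2 of 7 against 9.94% and 2 of 10 against 13.6%, with ratios for Acvr1c of 22.0 (17.3 to 28.3) and 37.5 (29.5 to 48.4) and for Bmpr1a of 3.34 and 2.67. In myeloid nuclei Tgfbr1 alone passed in the library labelled WT (2.44 times, 1 of 7 against 9.71%), and Tgfb1 alone in the library labelled KO (9.59 times, 1 of 10 against 19.5%). In lymphocytes Tgfb1 (2.97 times, 2.54 to 3.47) and Tgfbr2 (2.37 times, 2.07 to 2.70) passed in the library labelled WT, 2 of 7 against 17.4%, and Tgfb1 (4.15 times, 2.57 to 6.35) in the library labelled KO, 1 of 10 against 20.3%. None passed in lymphoid stroma, 0 of 7 against 8.15%, or in myocytes, 0 of 10 against 9.55%. In endothelial nuclei 0 of 7 passed in the library labelled WT, against 11.6%, and Tgfbr2 (2.44 times) and Bmp4 (3.06 times, 0.972 to 7.38) in the library labelled KO, 2 of 10 against 13.7%.

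To see how the stromal genes were arranged within ASPCs, these nuclei were clustered again in each library on its own. The library labelled KO gave an interstitial progenitor-like subcluster of 402 nuclei (with the markers Dpp4 and Pi16), a committed preadipocyte-like one of 267 and a regulatory-type-like one of 115. The library labelled WT gave an interstitial progenitor-like subcluster of 124 nuclei and 1 of 173 nuclei that carried 7 regulatory-type and 6 committed markers and stayed unnamed. The 10 genes and their pathway were not among the genes that set the clusters.

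Bmper and Gdf10 marked different subclusters. Bmper stood at 945 CPM in the committed-like subcluster of the library labelled KO, at 161 CPM in the regulatory-type-like and at 61.3 CPM in the progenitor-like subcluster, a ratio of 15.4 (12.3 to 19.6) between the first and the last. Gdf10 stood at 817 CPM in the regulatory-type-like subcluster, at 116 CPM in the committed-like and at 25.3 CPM in the progenitor-like subcluster. The regulatory-type-like level of Gdf10 was 7.05 times (5.86 to 8.53) the committed-like level, while that of Bmper was 0.170 times (0.141 to 0.205). Under the label WT both were in the unnamed subcluster, Bmper with 48 counts against 1 and Gdf10 with 97 against 0 in the progenitor-like subcluster. There the ratio for Bmper was 15.6 (2.67 to 629).

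In the library labelled KO the TGF-β receptors and Tgfb2 were lower in committed-like than in progenitor-like nuclei. Tgfbr2 in the library labelled KO was 469 CPM in the progenitor-like and 245 CPM in the committed-like subcluster, a ratio of 0.523 (0.453 to 0.602), and Tgfbr1 172 and 92.6 CPM, a ratio of 0.537 (0.424 to 0.677). Tgfbr1 under the label WT was 104 CPM in the progenitor-like and 53.4 CPM in the unnamed subcluster, a ratio of 0.514 (0.280 to 0.966). Tgfbr2 there was 219 and 160 CPM, a ratio of 0.732 (0.499 to 1.09) that did not separate them, and Tgfb2 had 3 counts (16.4 CPM) in the progenitor-like and 16 counts (28.5 CPM) in the unnamed subcluster. Tgfb2 was 72.0 CPM in the progenitor-like and 66.1 CPM in the regulatory-type-like subcluster, and 0.417 times (0.276 to 0.618) the progenitor-like level in the committed-like subcluster, of the library labelled KO. Bmpr1a and Bmp4 differed less across committed-like and progenitor-like nuclei, with ratios of 0.917 (0.768 to 1.09) and 1.01 (0.631 to 1.61).

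**Figure D3:**
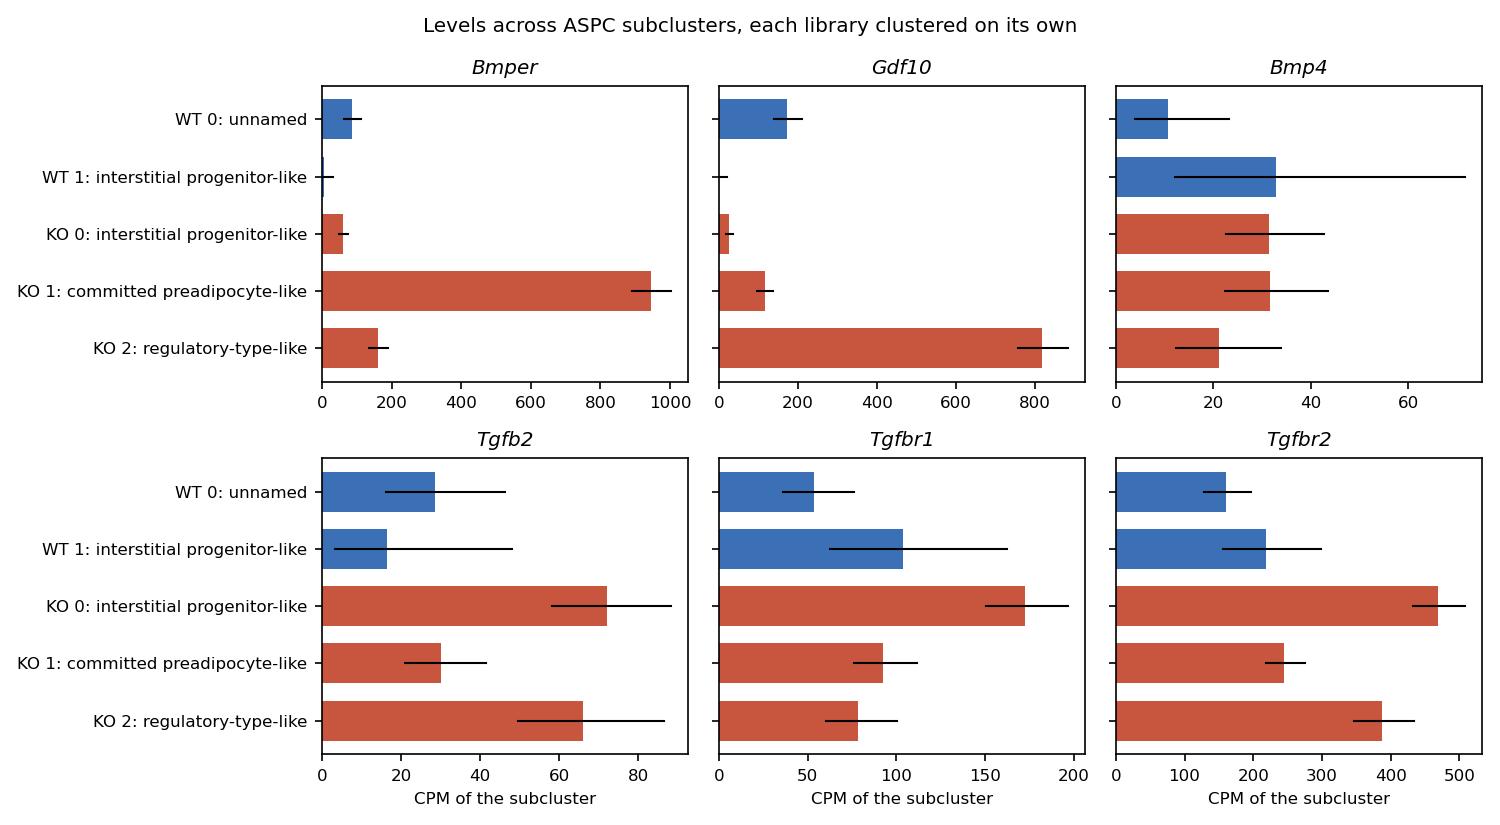
Level (CPM of the subcluster) of 6 genes in ASPC subclusters, each library clustered on its own, with exact Poisson 95% intervals. Bmper reaches 945 CPM in the committed preadipocyte-like subcluster of the library labelled KO and Gdf10 817 CPM in the regulatory-type-like subcluster, and both are lowest in the interstitial progenitor-like subclusters.

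The receptors also differed between clusters of myeloid nuclei in the library labelled KO. Cluster 3 (544 nuclei) and cluster 7 (304 nuclei) shared the macrophage markers Mrc1, Csf1r, Adgre1, Lyz2, Itgam and Cd68. F13a1 and Cd163 passed as markers in cluster 3 and not in cluster 7, and Ctss, Flt3, Itgax and Cd74 in cluster 7 and not in cluster 3. Tgfbr1 was 219 CPM in cluster 7 and 78.3 CPM in cluster 3, a ratio of 2.79 (2.25 to 3.48). Tgfbr2 went the other way at 140 and 322 CPM, a ratio of 0.434 (0.358 to 0.523). The ligand Tgfb1 was 161 and 105 CPM, a ratio of 1.53 (1.23 to 1.90).

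To ask how the family differed between the genotypes as labelled, levels of each class were compared between the libraries where a gene had at least 50 counts over both. In adipocytes 6 of the 10 genes could be compared. Bmper was higher in the library labelled KO by 10.8 times (6.95 to 17.8) and Bmpr1a by 5.11 times (4.26 to 6.17), and Tgfb1 was lower, at 0.190 times (0.130 to 0.276). These 2 of 6 higher and 1 of 6 lower stood against 25.8% and 17.6% of all genes past 2-fold in the same direction. Acvr1c differed little, with a ratio of 1.05 (0.967 to 1.14). Tgfbr1 gave 1.15 (0.930 to 1.44) and Tgfbr2 0.741 (0.575 to 0.963).

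In ASPCs 8 genes could be compared and 4 were at least 2-fold higher in the library labelled KO, against 25% of all genes, while 0 were lower, against 8.75%. They were Bmper at 6.17 times (4.64 to 8.38), Bmpr1a at 3.95 times (2.84 to 5.67), Tgfb2 at 2.17 times (1.35 to 3.68) and Tgfbr2 at 2.11 times (1.76 to 2.55). Gdf10, at 1.92 times (1.55 to 2.39), Tgfbr1, at 1.83 times (1.36 to 2.52), and Bmp4, at 1.80 times (0.985 to 3.61), stayed under 2-fold. Tgfb1 had a ratio of 0.575 (0.364 to 0.934). In adipocytes and ASPCs Bmper, and in ASPCs Bmpr1a, Tgfb2, Tgfbr1 and Bmp4 too, had fewer than 50 counts in the library labelled WT and met the minimum through the other library. In endothelial nuclei this was so for Tgfbr2, which was higher by 3.15 times (1.92 to 5.40), 1 of 2 genes compared against 32%. None of the 3 genes compared in myeloid nuclei, and none of the 3 in lymphocytes, passed 2-fold, where 24.3% and 16.5% of all genes were higher and 12.7% and 21.3% lower.

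The ratios between the libraries moved with intronic length over all genes. In adipocytes the median log2 ratio over genes with up to 3000 intronic bases was -0.89, and over genes with more than 100000 it was 1.44. Bmper has 258334 intronic bases, Bmpr1a 86257 and Acvr1c 81151, but Tgfb1 15518. After correction for this trend the log2 ratio of Bmper in adipocytes was 1.61 in place of 3.43, that of Bmpr1a 1.69 in place of 2.35, and that of Tgfb1 -2.18 in place of -2.40. Acvr1c then had -0.51 in place of 0.07. In ASPCs the correction took Bmper from 2.62 to 0.60, Tgfbr2 from 1.08 to 0.36 and Tgfb2 from 1.12 to 0.41, all under 2-fold, while Bmpr1a (1.98 to 1.26), Gdf10 (0.94 to 1.25) and Bmp4 (0.85 to 1.26) were above it. Bmp4 (12 and 96 counts) and Bmpr1a (37 and 650) met the minimum only through the library in which they were high, so nothing is read from their passing. In adipocytes Tgfbr2 then passed 2-fold in the lower direction, at -1.04 in place of -0.43, and so did Tgfbr1 in myeloid nuclei, at -1.02 in place of -0.47. Of the 22 pairs of gene and class compared, Bmper, Bmpr1a and Tgfb1 in adipocytes, Bmpr1a in ASPCs and Tgfbr2 in endothelial nuclei were past 2-fold in the same direction under 8 of 8 alternatives. In ASPCs this was so for Bmper under 7, Tgfbr2 under 6 and Tgfb2 under 5 of the 8. Of these pairs, Bmper and Tgfb2 in every class named, Bmpr1a in ASPCs and Tgfbr2 in endothelial nuclei met the minimum of 50 counts only through the library in which they were high, so these tallies are a description of the settings and support nothing.

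**Figure D4:**
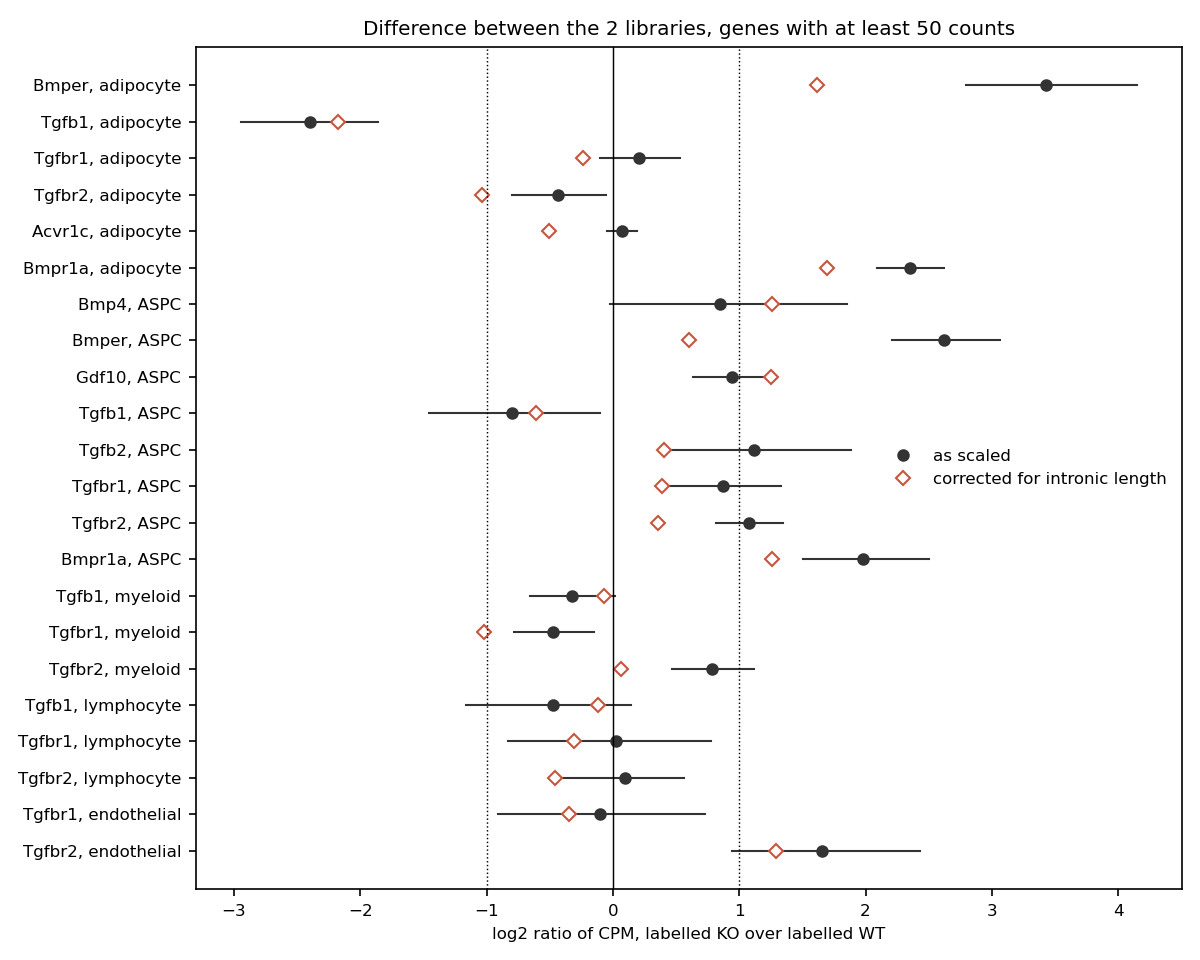
Log2 ratio of CPM, labelled KO over labelled WT, for the 22 pairs of gene and cell class with at least 50 counts, with exact 95% intervals (filled points) and after correction for intronic length (open diamonds). Dotted lines mark 2-fold. Bmper in adipocytes lies at 3.43 before and 1.61 after the correction, and Tgfb1 in adipocytes at -2.40 and -2.18.

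The low Tgfb1 level in adipocytes of the library labelled KO went with less leukocyte RNA in the adipocyte droplets. The 16 lymphocyte markers summed to 403 CPM in adipocytes of the library labelled WT, 6.89% of their level in lymphocytes, and to 16.8 CPM, or 0.298%, in the library labelled KO, with 0 of 16 at 0 counts in either. The 14 myeloid markers stood at 9.02% and 1.38% of their myeloid level. Tgfb1 in adipocytes was 18.2% (13.9 to 23.6) and 4.80% (2.87 to 8.27) of the lymphocyte level. The part of leukocyte RNA in the Tgfb1 difference was not tested.

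The share of nuclei with a UMI was compared after each nucleus of at least 1000 UMIs had been thinned to 1000. Shallower nuclei were left out, 11 and 5 adipocytes, 38 and 23 ASPCs, 75 and 52 myeloid nuclei, 1025 and 11 lymphocytes and 32 and 20 endothelial nuclei. Acvr1c was found in 24.3% (20.2 to 28.7) and 28.9% (25.9 to 32.0) of adipocytes, against 58.9% and 79.4% before thinning. In lymphocytes, which should lack it, 1.11% (0.574 to 1.93) of 1083 nuclei and 0 of 63 had a UMI. For the latter, 3 nuclei would be 4.76% and the exact upper limit was 5.69%. Bmpr1a was found in 6.13% (25 of 408) and 25% (219 of 875) of adipocytes and in 3.86% and 19.2% of ASPCs. Bmper was found in 5.02% (2.70 to 8.43) and 22.6% (19.7 to 25.7) of ASPCs, and in 1.23% (0.399 to 2.84) and 11.7% (9.61 to 14.0) of adipocytes. Gdf10 was close between the libraries, with 7.72% (4.78 to 11.7) and 10.1% (8.07 to 12.5) of ASPCs. The unthinned class medians were 3643 and 7836 UMIs in adipocytes and 1008.5 and 2174 in lymphocytes.

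**Figure D5:**
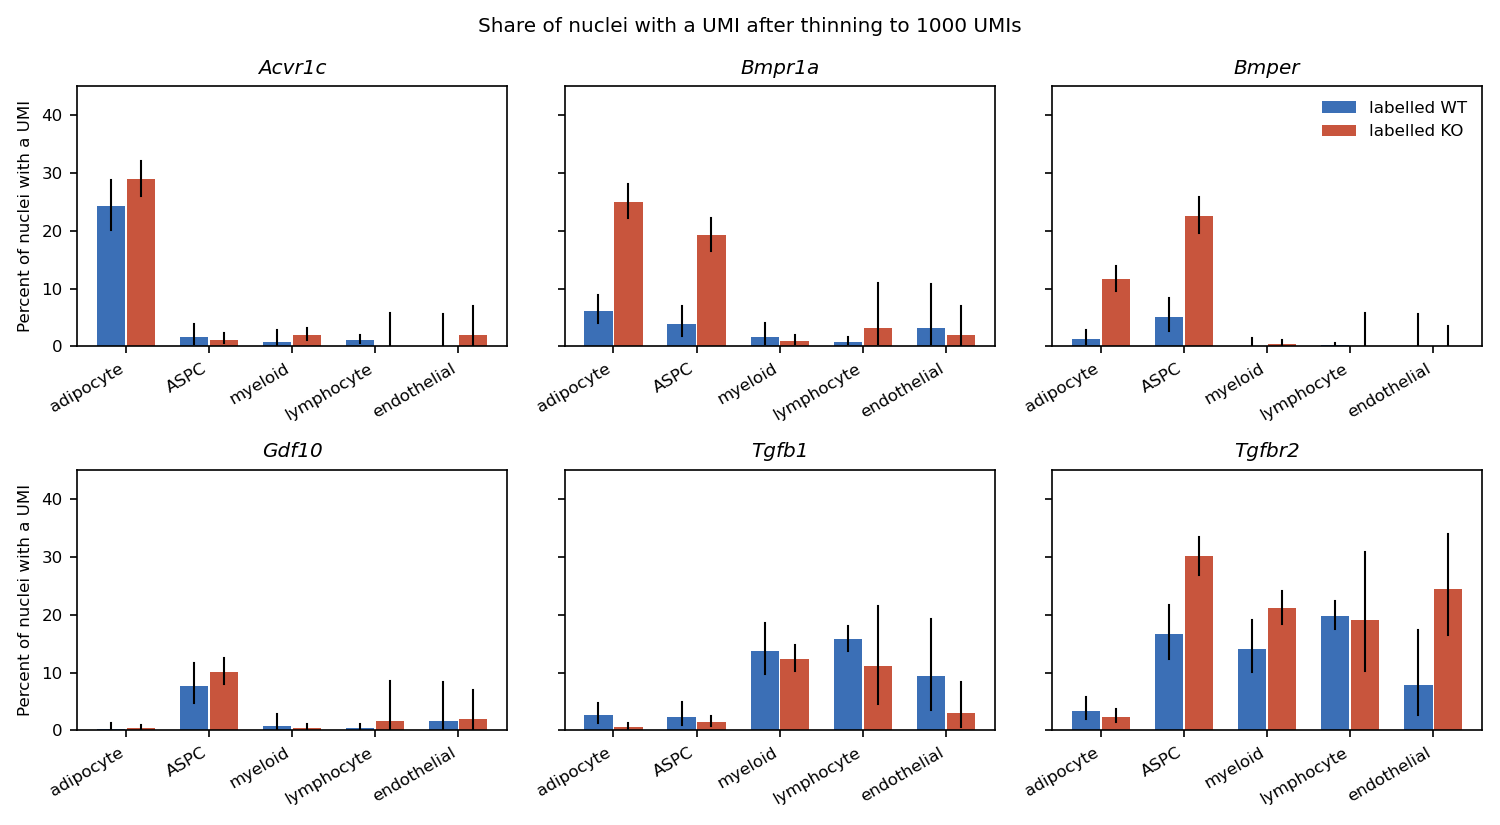
Percent of nuclei with a UMI of 6 genes after each nucleus of at least 1000 UMIs was thinned to 1000, by class, with exact Clopper-Pearson 95% intervals. Acvr1c is found in 24.3% and 28.9% of adipocytes and Bmper in 5.02% and 22.6% of ASPCs.

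Beyond the 10 genes, 86 other genes of the pathway were counted from a fixed list of ligands, receptors, SMADs, extracellular modulators, intracellular regulators and target genes. In adipocytes 43 could be compared, of which 17 were at least 2-fold higher and 10 lower in the library labelled KO, against 25.8% and 17.6% of all genes, with a median log2 ratio of 0.77 against -0.01 over all genes. After the correction for intronic length 7 were higher and 8 lower, against 18.9% and 12%, and the median was 0.27. The number lower in adipocytes was 5 with at least 1000 genes per nucleus, 6 with doublets kept and 16 with a minimum of 20 counts. In ASPCs it was 15 and 2 of 47, against 25% and 8.75% of all genes, and 7 and 1 after the correction, against 14.3% and 9.02%. With a minimum of 20 counts the number lower in ASPCs was 7 in place of 2. Of the genes higher in the library labelled KO, 9 of 17 in adipocytes and 10 of 15 in ASPCs had fewer than 50 counts in the library labelled WT, as had 3 of the 10 lower in adipocytes and 1 of the 2 lower in ASPCs in the library labelled KO, so these counts are descriptions from which nothing is read. A leading class was found in both libraries for 53 genes, and it was the same class for 41.

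The role groups in adipocytes stand against the same shares of all genes, 25.8% higher and 17.6% lower, or 18.9% and 12% after the correction. Receptors and co-receptors gave 5 higher and 0 lower of 9, and 2 and 0 after the correction, with 2 of the 5 under 50 counts in the library labelled WT. Tgfbr3, a co-receptor that presents TGF-β2, went from 72.7 to 606 CPM (8.34 times; log2 1.69 after correction), and Acvr1, a type I BMP receptor, had 26 and 945 counts. Bmpr2 and Acvr2a, type II receptors, were at 49.6 and 106 CPM and at 31.2 and 53.8 CPM. Among SMADs, 2 of 7 were higher and 1 lower, or 1 and 1 after the correction, and both higher genes had fewer than 50 counts in the library labelled WT, with Smad3 at 26 and 566 counts and the inhibitory Smad7 at 106 and 33.0 CPM (0.311 times; -1.68), while Smad4 was at 89.1 and 74.2 CPM and Smad2 at 56.8 and 107 CPM.

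Intracellular regulators gave 4 higher and 1 lower of 7, and 1 and 1 after the correction. Smurf2, a ubiquitin ligase for receptors and SMADs, was at 31.2 and 166 CPM (5.33 times; 1.64), and Nedd4l, another ligase, at 118 and 467 CPM (3.95 times; -0.09). The extracellular group gave 4 higher and 4 lower of 11, and 0 and 3 after the correction. All 4 higher genes of this group had fewer than 50 counts in the library labelled WT, among them Ltbp1, a latent TGF-β binding protein, at 5 and 93 counts. Of those called lower, Nrros was at 17.4 and 4.74 CPM and Fstl1 at 81.9 and 30.4 CPM. In the ligand group of the list, Bmp1, which encodes a protease and not a ligand, was at 22.0 and 10.4 CPM. Bmp8b had 1 and 50 counts in adipocytes and Bmp6 had 1 and 318 in ASPCs, so both met the minimum only through the library in which they were high. The same was true of Acvr1, Smad3 and Ltbp1, and no fold is given for any of these 5. Among target genes, Id2, a BMP target, was at 20.5 and 1.19 CPM (0.0579 times; -3.18), while Id3 was at 339 and 210 CPM. Among the genes lower in adipocytes, Nrros and Tgfbi were highest in myeloid nuclei, Fstl1, Fst and Bmp1 in ASPCs and Smad7 and Skil in lymphocytes of both libraries. Id2 was highest in myeloid nuclei and in lymphocytes. Ltbp4 and Klf10 were highest in endothelial nuclei of both libraries, a class whose marker share in adipocytes is not given here. The markers of the other 3 classes in adipocytes were lower as well. They went from 9.02% to 1.38% of their own level for myeloid, from 10.2% to 3.39% for ASPC and from 6.89% to 0.298% for lymphocyte markers. Their part in these values was not tested.

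As a description, the genes whose levels ran most like each member were found over 12 values, 6 classes in each of the libraries centred within the library, among 10535 genes. Acvr1c ran with Fam126b (Pearson r 0.970), Plin1 (0.964), the perilipin of lipid droplets, and Acsl1 (0.963). Gdf10 ran with the matrix genes Lama2 (0.967), Mfap5 (0.966) and Col3a1 (0.963), and Bmper with Svep1 (0.978), Adam23 (0.965) and Megf9 (0.952). Bmp4 was closest to Map1b (0.976), Tgfb2 to Nmt2 (0.903), Tgfb1 to 9930111J21Rik2 (0.990), Tgfbr2 to Wipf1 (0.956), Bmpr1a to Gm11266 (0.976), Tgfbr1 to Heatr1 (0.892) and Bmp2 to Efcc1 (0.898). The values share libraries and depth, and Tgfb1 had 343 genes above an r of 0.9, whereas Tgfbr1 and Bmp2 had 0.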

How the data were processed

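The authors deposited UMI counts from Cell Ranger (6.1.1 per the file headers), with Seurat 4 and mm10 named in the submitters' processing notes. Each table holds 31053 genes and 5000 barcodes, and sums to 9376351 UMIs (labelled WT) or 19655049 UMIs (labelled KO). Whether intronic reads were counted and whether free RNA was removed is not given in the sources used here.

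Barcodes with at least 500 genes and at most 5% mitochondrial UMIs were kept. Doublets were scored with Scrublet in scanpy 1.11.5. Its threshold removed 111 barcodes of the library labelled KO. It marked 4 in the library labelled WT, under 0.5%, so the 4% with the highest scores (146) were removed there. Merged counts were clustered in Seurat 5.3.0 (R 4.3.3; 2000 variable genes without the 10 genes and the pathway list, 20 components, 20 neighbours, resolution 0.5, no batch correction). A marker passed in a cluster at 5% of nuclei and 2 times the mean of the others. A name needed 3 markers, a lead of 3 and no other class ahead among the top 10 genes. Adipocytes were mainly cluster 4 (labelled WT) and cluster 1 (labelled KO), and ASPCs cluster 8 and clusters 5 and 6, so classes of the libraries came from different clusters.

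Counts were summed per class and library and scaled to CPM. Levels have exact Poisson intervals, ratios conditional binomial and shares Clopper-Pearson intervals (scipy 1.17.1), and no test was made. A pair was compared at 50 counts over both libraries and called at 2-fold, and a count of 0 allows 3 counts. In simulated data made for the comparison of adipocytes (11283 genes), 178 of 178 genes changed by 4-fold were recovered and 75 of 11105 unchanged genes were called. These data were drawn from a shared profile with counting error only. They held no trend with intronic length, no free RNA and no variation among mice, so they cannot give the rate of false calls in the real comparison. Intronic lengths came by gene ID from NCBIM37, another build, with no coordinates taken. Sequences and positions are from RefSeq tables of GRCm38.p6, in which 10 of the genes matched and 9 had a promoter. Pathway genes were named as the 3 with most UMIs in each role and those changed by at least 4-fold in adipocytes, and 1 of them is not reported here. Dropped or changed settings are in the closing section. The members, lists and tests were chosen with earlier results of these data known.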

Additional observations from a re-analysis of the deposited data

How the results depend on the processing

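No paired analysis was possible because each genotype has 1 library. The number of genes with the same leading class in both libraries was 6 or 7 under all 6 alternatives run, and no called ratio of the 10 genes changed direction. In the pathway list 4 calls of higher turned under the correction for intronic length, to log2 ratios of -0.09 (Nedd4l in adipocytes) and, in myeloid nuclei, -0.50 (Tgfbr3), -0.24 (Crim1) and -0.0038 (Acvr1). For pairs of gene and class at least 2-fold lower in the library labelled KO (1), the count was 2 with at least 1000 genes per nucleus, with doublets kept, with each library clustered on its own and with mitochondrial genes and Malat1 taken out of the totals. It was 3 once intronic length was corrected for.

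For the pathway list, at least 1000 genes per nucleus gave 5 lower in adipocytes (10), 4 lower in myeloid nuclei (2), 6 higher in lymphocytes (12) and 0 lower in endothelial nuclei (1), with the main count in brackets. Keeping doublets gave 6 lower in adipocytes. Resolution 0.2 gave 5 lower in myeloid nuclei, and 13 higher (7) and 5 lower in endothelial nuclei. Clustering each library on its own gave 5 lower in myeloid nuclei, leaving mitochondrial genes and Malat1 out of the totals gave 4, and TMM scaling gave 0 lower in endothelial nuclei. Correction for intronic length gave 7 higher in adipocytes (17), 7 higher (15) and 1 lower (2) in ASPCs, 4 higher (12) and 4 lower in myeloid nuclei, 1 lower in lymphocytes (2), and 4 higher and 0 lower in endothelial nuclei. A minimum of 20 counts gave 16 lower in adipocytes, 7 lower in ASPCs and 5 lower in endothelial nuclei. Shares of nuclei with a UMI moved with the depth of thinning. At 500 UMIs Acvr1c was found in 15.0% (11.8 to 18.8) and 16.6% (14.2 to 19.2) of adipocytes, in place of 24.3% and 28.9% at 1000. Bmper was found in 2.36% and 10.6% of ASPCs, in place of 5.02% and 22.6%. The causes of the shifts in this section were not tested.

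The libraries differ in depth (median 1195 and 3865 UMIs) and in the clusters behind each class. Bmp4, Bmp2 and Tgfb2 in the library labelled WT rest on 20 to 43 UMIs, which limits what their order of classes can show.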
